A study of Mus musculus with 2 samples.

Results

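The metallothionein genes Mt1, Mt2 and Mt3 and the zinc transporter gene Slc30a1 were described in single cells of mouse small cell lung tumors, as 4 of the 27998 genes in the count tables. They were chosen with measured values in view, since earlier results of these cells had shown Mt1 and Mt2 UMIs to be many and to vary together, so their levels and relations below are descriptions without a test. UMIs (unique molecular identifiers, each marking 1 captured RNA molecule) of these genes were read in barcodes with more than 500 detected genes, which left 3193 of 4514 barcodes of tumor 1 and 3568 of 3816 barcodes of tumor 2. The study took 1 lung tumor from each of 2 mice and made 1 droplet library (10x Chromium) from the live, dye-negative sorted cells of each. Both mice carried the TKO genotype, labeled Rb-/-, Trp53-/- and Rbl2-/-, with a Rosa26 membrane-Tomato or membrane-GFP reporter. The paper describes these genes as floxed and conditionally deleted in lung cells through Cre, so the label need not hold for every cell. The strain background was mixed from 129/SvOla, 129/SVJ and C57BL/6. Both groups also shared the induction, an adenovirus with Cre under the CMV promoter, which is not restricted to one cell type, followed by 7 months until harvest at an age of 8 to 9 months. The groups thus differ in no treatment, each is 1 animal, and any difference between them cannot be told apart from a difference between libraries. With no library of normal cells, the deletions could not be checked from these counts.

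Metallothioneins are small proteins rich in cysteine that bind zinc, copper and cadmium. Transcription of Mt1 and Mt2 is switched on by the zinc sensor MTF1 and also responds to glucocorticoids, oxidative stress and low oxygen, so the pair is widely used as a readout of metal load and stress. Mt3 is best known from neurons and responds little to metals, and Slc30a1 encodes ZnT1, the zinc exporter of the plasma membrane, itself a target of MTF1.

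The genes Mt4, Mt3, Mt2 and Mt1 lie in this order on the plus strand of chromosome 8 within 43.1 kb (GRCm38, GENCODE M21), each with 3 exons, and the end of Mt2 and the start of Mt1 are 5513 bases apart. In GRCm38, Mt1 covers chr8:94179082-94180327, Mt2 chr8:94172664-94173568 and Mt3 chr8:94152607-94154146, while Slc30a1, with 2 exons, covers chr1:191906767-191913247. The 250 bases before the RefSeq start of all 4 genes (GRCm38.p6) are shown because MTF1 is known to act through the metal response element. These windows differ in how many matches to its core they hold. Capitals mark each match to TGCACNC or TGCGCNC on either strand.
Mt1 promoter (chr8:94178839-94179088, plus strand): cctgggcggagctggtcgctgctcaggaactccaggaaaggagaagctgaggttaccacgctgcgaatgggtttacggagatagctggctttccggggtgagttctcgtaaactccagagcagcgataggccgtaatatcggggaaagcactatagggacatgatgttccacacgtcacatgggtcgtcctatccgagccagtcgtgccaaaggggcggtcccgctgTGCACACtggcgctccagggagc
Mt2 promoter (chr8:94172368-94172617, plus strand): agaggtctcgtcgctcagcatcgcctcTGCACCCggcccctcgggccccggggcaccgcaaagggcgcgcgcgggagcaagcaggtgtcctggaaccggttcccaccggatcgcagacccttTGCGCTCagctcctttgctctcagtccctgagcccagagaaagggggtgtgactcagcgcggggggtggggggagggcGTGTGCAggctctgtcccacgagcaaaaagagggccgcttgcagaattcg
Mt3 promoter (chr8:94152357-94152606, plus strand): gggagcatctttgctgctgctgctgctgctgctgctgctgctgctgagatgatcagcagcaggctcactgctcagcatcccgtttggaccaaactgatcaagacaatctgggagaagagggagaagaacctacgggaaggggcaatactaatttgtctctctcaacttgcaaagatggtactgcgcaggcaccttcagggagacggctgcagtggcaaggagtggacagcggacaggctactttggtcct
Slc30a1 promoter (chr1:191906531-191906780, plus strand): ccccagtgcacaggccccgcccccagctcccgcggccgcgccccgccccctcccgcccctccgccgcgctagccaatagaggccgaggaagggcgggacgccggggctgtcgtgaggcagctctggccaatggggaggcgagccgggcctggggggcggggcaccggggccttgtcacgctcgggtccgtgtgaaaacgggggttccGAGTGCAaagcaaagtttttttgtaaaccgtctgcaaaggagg
Mt2 held 3 matches, a number or more found in 1.26% of 32851 promoters of the same length, while Mt1 and Slc30a1 held 1 each, and 21.4% of promoters hold at least 1. Mt3 held 0, which says only that these letters are not in this window. The counts of all 4 genes likewise hold for these windows only. The Mt2 window ends before the GENCODE start of the gene, while those of Mt1 and Slc30a1 run past theirs. Bases outside the windows were not searched, so the counts do not rank the whole promoters. The core of the hypoxia response element, ACGTG or GCGTG on either strand, had 2 matches in Mt1, 1 in Mt2 and 1 in Slc30a1, with at least 1 in 38.6% of promoters and at least 2 in 16.7%. The match in Mt2, 52 to 48 bases before the start, overlaps the metal response element core at 50 to 44. The heat shock letters GAANNTTC were in none of the 4 windows and in 6.69% of all promoters. All of these are matches of letters, not sites shown to be bound.

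Depth differed between the tumors, with a median of 1223 UMIs and 770 genes per retained cell in tumor 1 and 1960 UMIs and 1015 genes in tumor 2. Of the retained barcodes, 11 occurred in both libraries, which is 0.345% of tumor 1 and 0.308% of tumor 2. Cells were clustered without the 4 genes and without Mt4. In tumor 1, 2989 cells in 8 clusters were neuroendocrine-like (Chga, Calca and other markers), 106 were club-like, a cluster that also held alveolar type 2 markers, and 98 were macrophage-like. In tumor 2, 3382 cells in 9 clusters were neuroendocrine-like, 120 were macrophage-like with some T or NK cell markers, and 66 formed a cluster with both club cell and neuroendocrine markers that stayed unnamed. Clusters 0, 5 and 6 of tumor 1 had more markers of another cell type than of their own among their 10 leading genes, cluster 0 for ciliated cells (Cfap126, Pifo, Dynlrb2), so the tumors are compared by cluster and not only by class. Values per cell below come from cells thinned to 1000 UMIs each, which left out 839 neuroendocrine-like cells of tumor 1 and 361 of tumor 2 that were shallower. All intervals are 95% and cover counting error only, and where a count was 0 a limit of 3 UMIs or cells is used.

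Mt1 was higher in each neuroendocrine-like cluster of tumor 1 than in any of tumor 2. Levels are given as CPM, the UMIs of a gene scaled to the summed UMIs of the cluster. The 8 clusters of tumor 1 ranged between 841 CPM in cluster 6 and 4803 CPM in cluster 0, whereas the 9 clusters of tumor 2 ranged between 303 CPM in cluster 7 and 760 CPM in cluster 0. Mt2 showed the same separation, since its lowest cluster in tumor 1 (583 CPM) was above its highest in tumor 2 (440 CPM). Such a separation was also found for 9.65% of the 12927 genes with at least 10 UMIs. Mt3 overlapped between the tumors, with clusters at 143 to 267 CPM in the first tumor and at 6.92 to 160 CPM in the second.

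**Figure D1:**
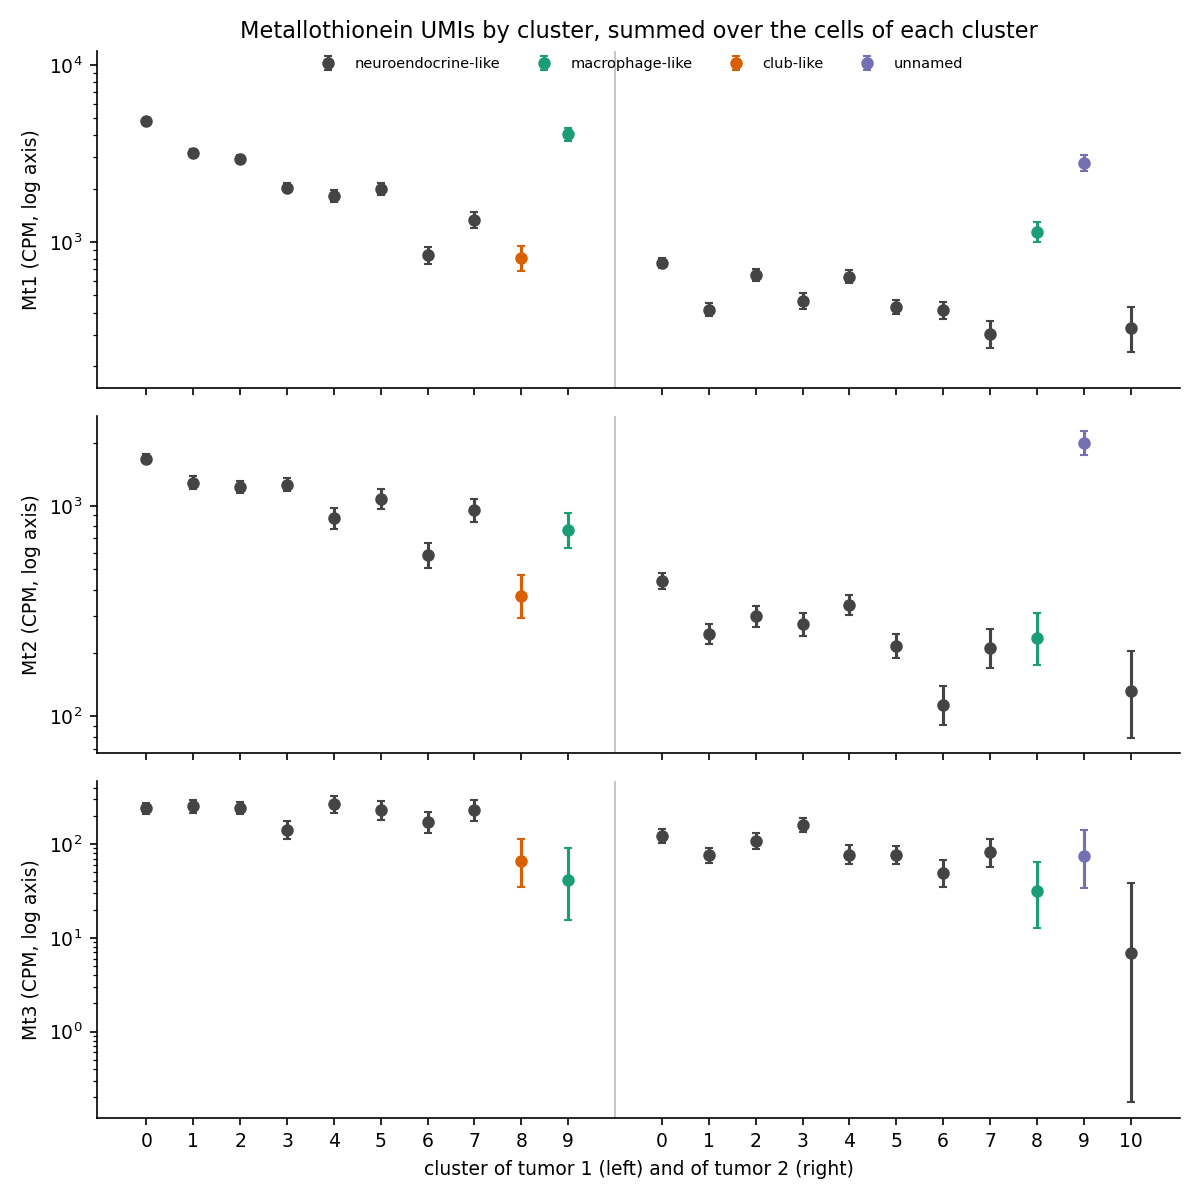
CPM of Mt1, Mt2 and Mt3 (log axes) in each cluster of tumor 1 on the left and tumor 2 on the right, colored by cell class, with exact 95% Poisson intervals as bars. The dark points of tumor 1 lie above those of tumor 2 for Mt1 and Mt2 but overlap them for Mt3, and the unnamed cluster 9 of tumor 2 stands far above its neighbours at 2794 CPM of Mt1.

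Summed over the neuroendocrine-like cells, tumor 1 had 11972 UMIs of Mt1, which is 2833 CPM (interval 2782 to 2884), and tumor 2 had 4038 UMIs, which is 520 CPM (504 to 536). That is a log2 ratio of 2.45 (2.39 to 2.50), or 5.45-fold. For Mt2 the levels were 1231 CPM (1198 to 1265) and 273 CPM (261 to 284), a log2 ratio of 2.18 (2.10 to 2.25). For Mt3 they were 224 CPM (210 to 239) and 92.5 CPM (85.8 to 99.5), a log2 ratio of 1.28 (1.14 to 1.42). The interval of Slc30a1 included 0, with 24 UMIs (5.68 CPM) against 30 UMIs (3.86 CPM) and a log2 ratio of 0.56 (-0.28 to 1.38). These need to be read against the other genes, since the median log2 ratio over all 12927 genes was 0.37 and 31.2% of genes were at least 2-fold higher in tumor 1. Relative to that median the log2 ratios were 2.08 for Mt1, 1.81 for Mt2 and 0.91 for Mt3. Without clusters 0, 5 and 6 of tumor 1, an alternative chosen after the data had been seen, the log2 ratio of Mt1 was 2.26 and that of Mt2 2.11.

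By Mt1 the neuroendocrine-like clusters of tumor 1 were ordered in steps. Cluster 0 was highest at 4803 CPM (4665 to 4945). Clusters 1 and 2 followed with 3197 and 2959 CPM, whose intervals overlapped. Clusters 3, 5 and 4 formed a further step at 2028, 1986 and 1825 CPM, again with overlapping intervals. Cluster 7, with the replication gene Clspn among its leading genes, had 1330 CPM (1194 to 1478), and cluster 6, led by the neurofilament gene Nefm, had 841 CPM (748 to 943), which made a 5.71-fold range. In tumor 2 the range was 2.51-fold. Clusters 0, 2 and 4 were highest there with 760, 650 and 638 CPM, and the mitotic cluster 7 (Cenpf, Cdkn3) was lowest at 303 CPM (253 to 360), with an interval that overlapped that of cluster 10 (325 CPM). Mitotic cells were not uniformly low, since cluster 3 of tumor 1 (Ube2c, Ccnb2, Plk1) was in the middle for Mt1 but at 1259 CPM of Mt2 was level with clusters 1 and 2 (1290 and 1228 CPM).

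The share of Mt1 among the UMIs of Mt1 and Mt2 was not constant. Among neuroendocrine-like cells it was 69.7% in tumor 1 (exact binomial interval 69.0 to 70.4%) and 65.6% in tumor 2 (64.4 to 66.8%). By cluster it ran from 58.3% in cluster 7 to 74.2% in cluster 0 of tumor 1. In tumor 2, cluster 6 (Spp1, Lect1, Vtn) stood highest at 78.5% (74.2 to 82.3%), where its Mt2 level was the lowest of the neuroendocrine-like clusters at 113 CPM while its Mt1 level of 412 CPM was close to that of clusters 1 and 5 (416 and 433 CPM). The macrophage-like cells had 84.1% (81.1 to 86.7%) in tumor 1 and 83.0% (78.3 to 87.0%) in tumor 2, above the neuroendocrine-like cells of both. Mt1 and Mt2 are similar in sequence, and how reads matching both were counted is not given in the sources used here.

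At a fixed depth most tumor 1 cells had an Mt1 UMI and most tumor 2 cells had none. Of the neuroendocrine-like cells thinned to 1000 UMIs, 72.4% (70.4 to 74.3%) of 2150 cells in tumor 1 and 25.9% (24.3 to 27.5%) of 3021 cells in tumor 2 had at least 1 Mt1 UMI. Without thinning, over all 2989 and 3382 neuroendocrine-like cells with the shallower ones included, it was 75.5% and 36.5%. For Mt2 the shares of thinned cells were 53.6% and 14.4%, and for Mt3 19.6% and 7.91%. Slc30a1 was seen in 8 cells (0.372%) and 9 cells (0.298%), close to the limit of 3 cells (0.140% and 0.0993%). Over all thinned cells the variance relative to the mean was larger in tumor 2. The variance of Mt1 was 4.96 times its mean in tumor 1 and 7.75 times in tumor 2, that of Mt2 2.52 and 9.09 times, and that of Mt3 1.15 and 1.21 times, where counting alone gives a value of 1. A single cell can carry much of such a value. The highest counts were 32 Mt1 and 17 Mt2 UMIs in tumor 1, and 72 and 56 in tumor 2. The values were not computed without the highest cells, so a wider spread over tumor 2 cells in general is not shown.

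**Figure D2:**
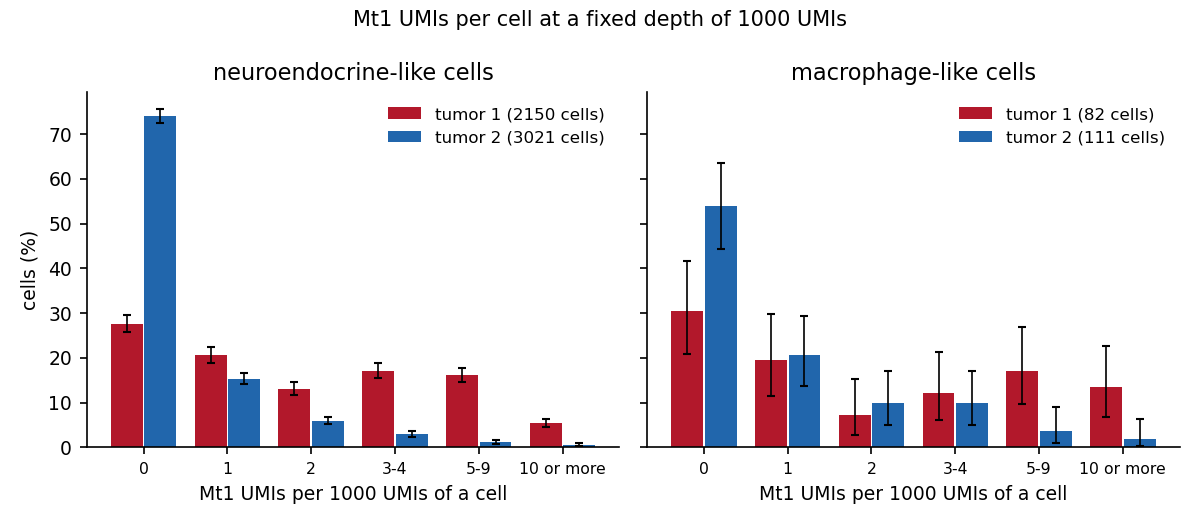
Share of cells (%) with 0, 1, 2, 3 to 4, 5 to 9 and 10 or more Mt1 UMIs per 1000 UMIs, for neuroendocrine-like cells on the left and macrophage-like cells on the right, with exact 95% binomial intervals. Cells without an Mt1 UMI make up 27.6% of neuroendocrine-like cells in tumor 1 and 74.1% in tumor 2, and cells with 10 or more make up 5.40% and 0.530%.

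The macrophage-like cells, the clearest non-tumor class, also had abundant Mt1 and showed the same order of the tumors. Tumor 1 macrophage-like cells had 4056 CPM of Mt1 (3732 to 4399) and tumor 2 ones 1143 CPM (1006 to 1293), in both cases above the summed neuroendocrine-like cells beside them. In tumor 1 the neuroendocrine-like cluster 0 was higher still at 4803 CPM. The median cell of tumor 1 at 1000 UMIs had 1.5 Mt1 UMIs if macrophage-like and 2 if neuroendocrine-like, so there the order holds for the sums only. The Mt2 level of the macrophage-like cells, 769 CPM (632 to 927) and 235 CPM (175 to 308), was not above that of the neuroendocrine-like cells. RNA that leaks between droplets was gauged from neuroendocrine markers, which macrophages should lack. In macrophage-like cells these markers were at a median of 19.8% of their neuroendocrine-like level in tumor 1 (16 markers, 8.32 to 114%) and 24.3% in tumor 2 (15 markers, 0 to 438%). Mt1 was at 143% and 220%, and Mt2 at 62.5% and 86.2%, while Mt3, on 6 and 7 UMIs, was at 18.7% and 34.2%. The top of each range was a single marker, Syp in tumor 1 (4 UMIs in macrophage-like cells) and Calca in tumor 2 (17 UMIs). The next highest were Insm1 at 39.1% and Ddc at 72.5%. Mt1 in tumor 1 was thus above all 16 markers. Mt2 in tumor 1 was above all but Syp, and Mt1 and Mt2 in tumor 2 were above all but Calca. Mt3 lay among the markers in both tumors. The part of leaked RNA in these values was not tested. At 1000 UMIs, 69.5% of 82 macrophage-like cells of tumor 1 and 45.9% of 111 of tumor 2 had an Mt1 UMI, and 3 and 4 cells had an Mt3 UMI. Median depths without thinning were 1314 and 1602 UMIs for the macrophage-like and 1213 and 1984 for the neuroendocrine-like cells. These medians include the cells under 1000 UMIs. The club-like cells of tumor 1 were low for that tumor, with 810 CPM of Mt1 (689 to 946) and 375 CPM of Mt2, and 34.1% of 91 cells had an Mt1 UMI.

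A single cell made up most of the signal in the unnamed cluster of tumor 2. Its 66 cells had 2794 CPM of Mt1 and 1999 CPM of Mt2, more than any other cluster of that tumor. One cell alone, with 246 Mt1 and 177 Mt2 UMIs among its 6328 UMIs and 2428 detected genes, held 73.8% of them. Without it the levels were 777 CPM (623 to 958) and 548 CPM (420 to 702). Leaving out the richest cell changed the Mt1 level of the other classes much less, to 3921 CPM in the macrophage-like cells of tumor 1, 1054 CPM in those of tumor 2 and 743 CPM in the club-like cells. Without the 3 richest, the macrophage-like cells were at 3477 and 866 CPM. Leaving out the 22 richest neuroendocrine-like cells, chosen by their share of Mt1 and Mt2 UMIs, gave 2686 CPM of Mt1 in tumor 1 and 444 CPM in tumor 2. Barcodes with 500 genes or fewer, which are not counted as cells here, had 2102 CPM of Mt1 in tumor 1, below its retained cells, and 1112 CPM in tumor 2, above them.

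**Figure D3:**
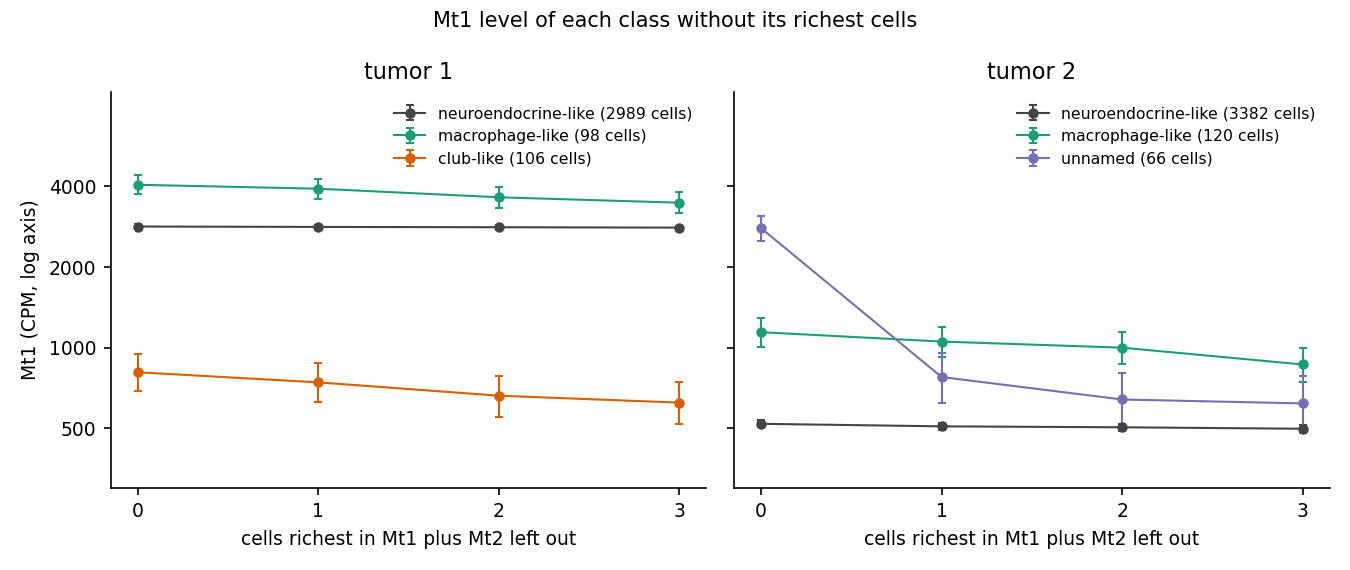
Mt1 CPM (log axis) of each cell class with all its cells and without the 1, 2 or 3 cells richest in Mt1 plus Mt2, with exact 95% Poisson intervals. The unnamed cluster of tumor 2 drops from 2794 to 777 CPM with the loss of 1 cell, while neuroendocrine-like cells without their 3 richest are still at 2806 CPM (tumor 1) and 498 CPM (tumor 2).

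Mt1 and Mt2 varied together from cell to cell in both tumors. Over neuroendocrine-like cells at 1000 UMIs, which share their library and depth, Pearson's r was 0.59 in tumor 1 (2150 cells) and 0.77 in tumor 2 (3021 cells), and Spearman's rho was 0.46 and 0.31. Without the 22 cells highest in Mt1 plus Mt2, a choice made after seeing the data, r was 0.46 and 0.34. Mt2 was the gene most correlated with Mt1, and Mt1 the gene most correlated with Mt2, among the genes that averaged 0.05 UMIs or more (3558 in tumor 1, 2948 in tumor 2). The next gene for Mt1 was Aldoa in tumor 1 (r = 0.37) and Atf4 in tumor 2 (r = 0.27), and for Mt2 the same genes with 0.22 and 0.35. Within clusters r was between 0.32 and 0.65 in the 8 clusters of tumor 1 and between -0.16 and 0.90 in the 9 of tumor 2, where 8 were above 0 and the lowest was cluster 10 with 57 cells. The macrophage-like cells had r = 0.68 (rho = 0.65, 82 cells) in tumor 1 and 0.74 (rho = 0.29, 111 cells) in tumor 2, and the club-like cells 0.56 (rho = 0.47, 91 cells).

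Mt3 and Slc30a1 had correlations near 0 with Mt1. The correlation of Mt1 with Mt3 was 0.0079 in tumor 1 and -0.0033 in tumor 2, and with Slc30a1 0.053 and 0.0023, the latter on 8 and 9 cells with a UMI. Cells without an Mt1 UMI had a mean of 0.478 Mt2 UMIs in tumor 1, and cells with 10 or more had 4.36 (3.99 to 4.76). In tumor 2 the same groups had 0.109 and 15.75 (13.9 to 17.8), the latter over only 16 cells. The means of Mt3 were 0.209 and 0.276 in tumor 1, with overlapping intervals. Transcripts of Mtf1, the zinc sensor, had r = 0.0056 and 0.021 with Mt1, although over all neuroendocrine-like cells Mtf1 was at 41.2 CPM in tumor 1 and 20.9 CPM in tumor 2, a log2 ratio of 0.98 (0.66 to 1.30).

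**Figure D4:**
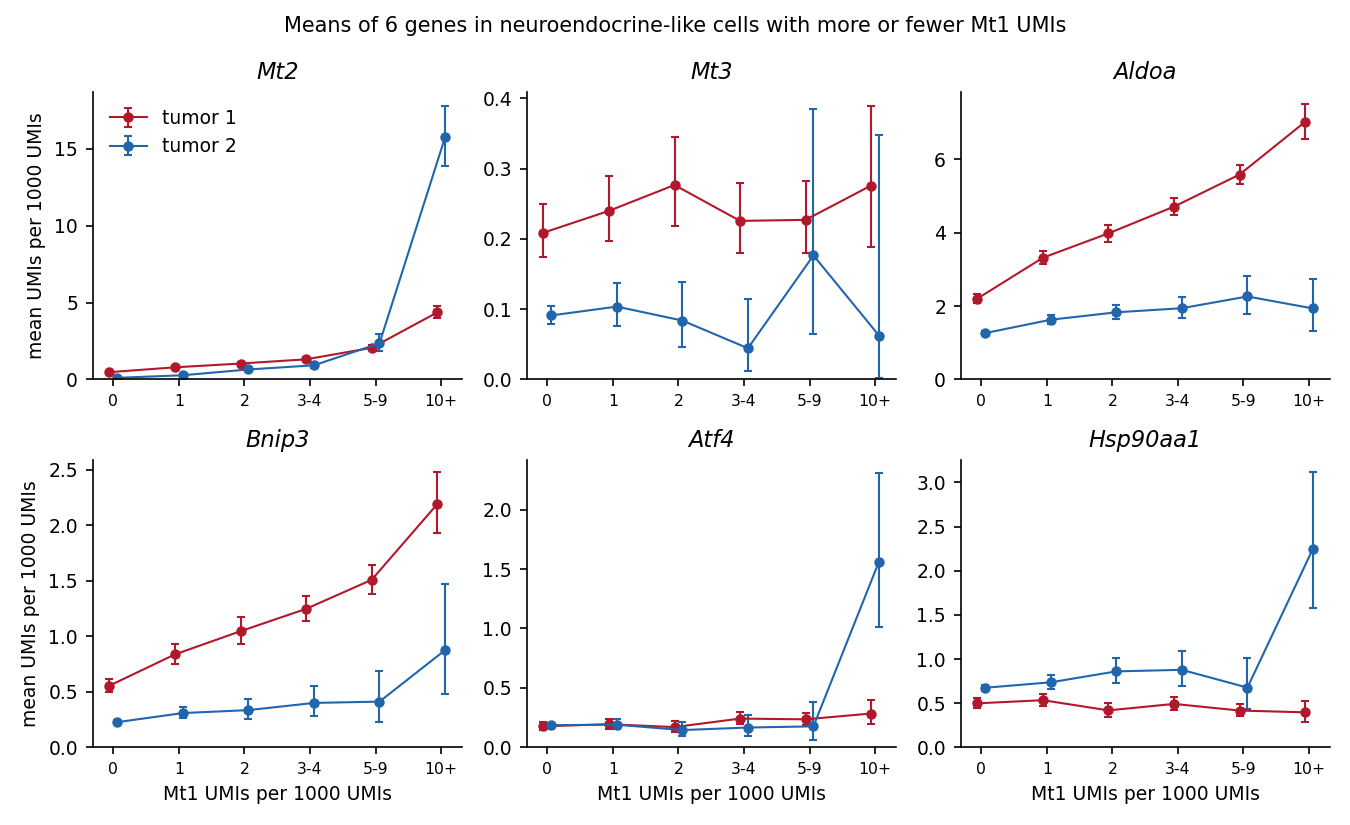
Mean UMIs per 1000 UMIs of Mt2, Mt3, Aldoa, Bnip3, Atf4 and Hsp90aa1 in neuroendocrine-like cells grouped by their Mt1 UMIs, in tumor 1 (red) and tumor 2 (blue), with exact 95% Poisson intervals. Mt2, Aldoa and Bnip3 climb from group to group in tumor 1, Mt3 stays flat, and in tumor 2 Atf4 (1.56) and Hsp90aa1 (2.25) have their highest means in the 16 cells with 10 or more Mt1 UMIs.

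In tumor 1, cells rich in Mt1 and Mt2 also had more transcripts of the hypoxia and glycolysis genes. The richest cells are called Mt-high. The 223 with at least 10 Mt1 plus Mt2 UMIs (the 90th percentile) were set against the 1278 Mt-low cells with at most 3 (the median). Both had similar depth, with medians of 1381 and 1413 UMIs before thinning, and the highest doublet scores were less frequent in Mt-high cells (1.35% against 5.16%). Without the cells with these scores, 278 genes were at least 2-fold higher in Mt-high cells, against 305 with them. The counts by list below were not repeated without these cells. Of the 15 hypoxia genes with at least 20 UMIs over both groups, out of 17 listed, 9 were at least 2-fold higher in Mt-high cells, against 3.88% of all 7854 genes. For 14 of the 15 the interval lay above 0, against 4.44% of all genes. Their median log2 ratio was 1.09, and that of all genes was -0.08. Aldoa, a glycolytic aldolase, had 6.57 UMIs in Mt-high and 2.95 in Mt-low cells, a log2 ratio of 1.16 (1.07 to 1.24). Bnip3, a mitophagy receptor induced by low oxygen, had 1.89 and 0.742 UMIs (log2 1.35, 1.18 to 1.52). Ndrg1, which low oxygen also induces, had the largest ratio of the list at 2.40 (1.54 to 3.26) but only 24 and 26 UMIs. Vegfa, the angiogenic growth factor, was the one whose interval included 0 (log2 0.89, -0.31 to 1.95).

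The genes best correlated with the sum of Mt1 and Mt2 in tumor 1 were Aldoa (r = 0.36), Ldha (0.28), Bsg (0.28), Bnip3 (0.27) and Mif (0.27), and Pkm, Fam162a, Eno1, Gapdh, Gpi1, Ankrd37 and Tpi1 were also among the first 15. The glutathione transferase Gstm1 (r = 0.20) and Itm2b (0.23) were among these 15 too. Without the 22 highest cells r for Aldoa was 0.36 and for Bnip3 0.27, as with them. They were also present within clusters, where r between Mt1 plus Mt2 and the summed hypoxia list was 0.21 to 0.38 in all 8. Cluster 0, highest in Mt1, also had the most hypoxia UMIs per cell (21.3 of 1000), and cluster 5 had the fewest (8.41). Without cluster 0, 7 of 14 hypoxia genes were at least 2-fold higher and 13 had an interval above 0 (median log2 0.95). Without clusters 0, 5 and 6 these counts were 4 and 13 (median 0.92). Over all genes, 187 were at least 2-fold higher without clusters 0, 5 and 6, against 305 with them. Shares over all genes are not given for these smaller sets.

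Largest among all well-measured genes of tumor 1 were the ratios of Bhlhe40 (log2 1.93, 1.32 to 2.53), a repressor induced by low oxygen, 1110017D15Rik (1.91, 1.53 to 2.28), Gstm1 (1.88, 1.45 to 2.30) and Ero1l (1.78, 1.23 to 2.32), an oxidase of the endoplasmic reticulum. Markers of ciliated cells, which include 1110017D15Rik, were higher too, with 5 of 7 at least 2-fold higher and 6 intervals above 0, against 3.88% and 4.44% of all genes (median log2 1.16), among them Cfap126 (2.42) and Foxj1 (1.14), the master regulator of motile cilia. Cfap126 is also a leading gene of cluster 0. Without cluster 0 only 4 of them reached 20 UMIs, of which 2 were at least 2-fold higher, with no share over all genes given for that set. At the other end were Ptma (r = -0.17), Tubb5 (-0.14), Crip1 (-0.13), Hmgb2 (-0.12) and Tuba1b (-0.11). Within clusters r was above 0 in 4 of 8 for Ptma, in 2 for Tuba1b and in 1 for each of the others. The ratio of Mycl, a Myc family gene, was low with 0.0224 UMIs in Mt-high and 0.239 in Mt-low cells (log2 -3.42), on 5 and 306 UMIs. Its r within clusters was -0.17 to 0.095 and above 0 in 4 of 8, so this relation did not hold within each cluster. Genes at least 2-fold lower were 10.4% of all, and those with an interval below 0 were 5.45%.

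Hypoxia genes were higher in Mt-high cells of tumor 2 as well, with smaller ratios. There 439 Mt-high cells with at least 2 UMIs of Mt1 plus Mt2 were set against 2040 Mt-low cells with 0, so the contrast is between few molecules and none, at median depths of 2248 and 2065.5 UMIs before thinning. Of 16 hypoxia genes counted, 3 were at least 2-fold higher, against 1.47% of 8115 genes, and 11 had an interval above 0, against 3.36%. Their median log2 ratio was 0.58, and that of all genes -0.10. Aldoa had 1.92 and 1.25 UMIs (log2 0.62, 0.51 to 0.73), and Bnip3 0.383 and 0.222 (0.79, 0.52 to 1.05). The 3 past 2-fold were Adm (2.09), Ndrg1 (1.69) and Egln3 (1.04), each on fewer than 20 UMIs in Mt-high cells. Over all 3021 cells r of Mt1 plus Mt2 with the summed list was only 0.061, against 0.42 over the 2150 cells of tumor 1. Within clusters of tumor 2 it was -0.0062 to 0.28 and above 0 in 8 of 9. Without the 22 highest cells the counts were 3 and 10 of 16 with a median of 0.56, and without cluster 0 they were 1 and 8 of 14 with a median of 0.53. Over all genes, 111 were at least 2-fold higher without the 22 cells, against 119 with them. Shares over all genes are not given for these smaller sets.

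**Figure D5:**
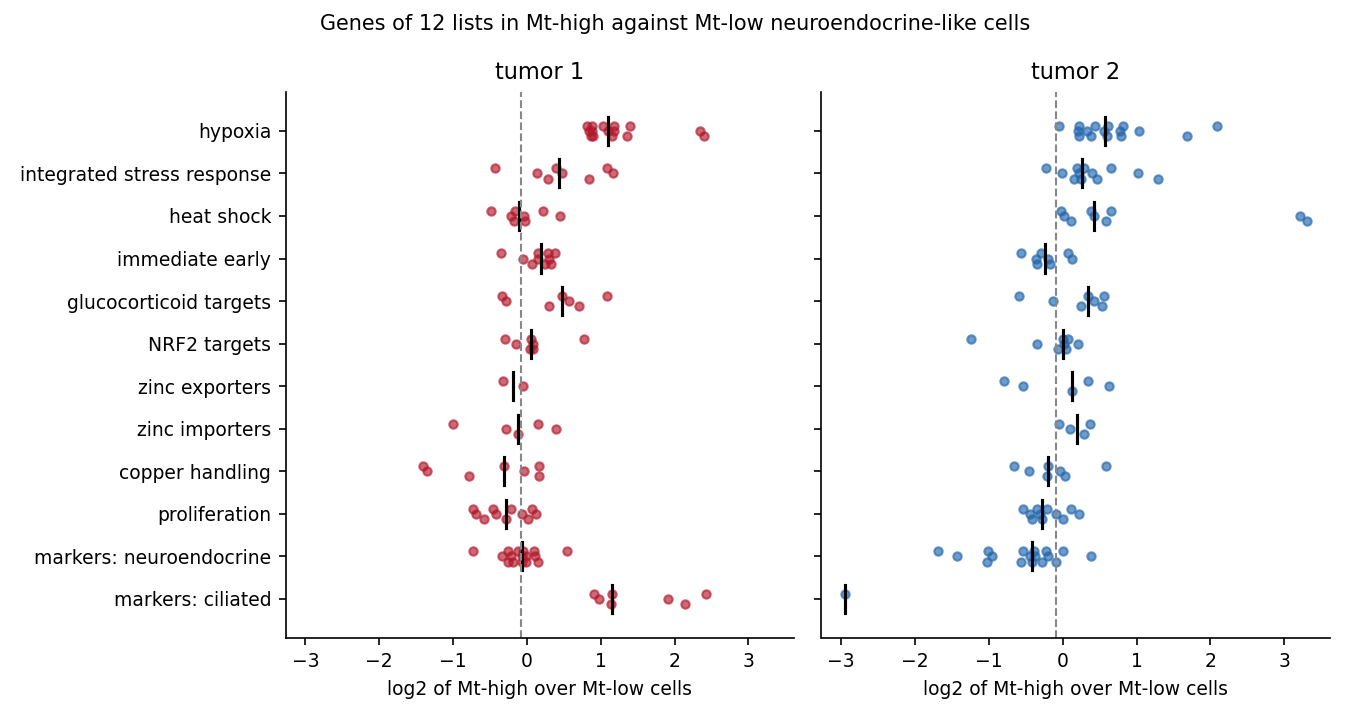
Log2 ratio of UMIs per cell in Mt-high over Mt-low neuroendocrine-like cells for genes of 12 lists, with tumor 1 on the left and tumor 2 on the right; each point is 1 gene with at least 20 UMIs, black bars are list medians and the dashed line is the median of all genes. The hypoxia list lies to the right of the dashed line in both tumors (medians 1.09 and 0.58), ciliated markers do so in tumor 1, and Hspa1a and Hspb1 stand apart in tumor 2. These 2 genes rest on 16 and 17 UMIs in Mt-high cells.

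Beyond hypoxia, stress, lineage and proliferation lists were counted in the same way, and the difference between the tumors was not tested. The integrated stress response had 2 of 8 genes at least 2-fold higher in tumor 1, Nupr1 (log2 1.08) and Atf5 (1.17), and 2 of 12 in tumor 2, Trib3 (1.29) and Nupr1 (1.01), against 3.88% and 1.47% of all genes. Its intervals lay above 0 for 4 of 8 and 4 of 12 genes, against 4.44% and 3.36%. Of the heat shock genes 0 of 8 had an interval above 0 in tumor 1 and 5 of 9 in tumor 2, against 4.44% and 3.36% of all genes, with Hspb1 (log2 3.30) and Hspa1a (3.22) far ahead. Without the 22 cells highest in Mt1 plus Mt2 the count in tumor 2 was 3 of 7, and r with the pair was -0.0056 for Hspb1 and -0.0037 for Hspa1a, against 0.64 and 0.65 with these cells. Neuroendocrine markers had a median log2 of -0.07 in tumor 1 and -0.42 in tumor 2. In tumor 2, 4 of 17 of them were at least 2-fold lower, against 7.39% of all genes. These were Resp18, Pcsk1, Meg3 and Calca, each on only 2 to 4 UMIs in Mt-high cells, and of them only Meg3 had an interval below 0. Of the 17, 5 had an interval below 0, against 5.5%. The counts became 3 and 3 without the 22 highest cells. Among the 5 was Nkx2-1 (-0.96, -1.53 to -0.44), a lung lineage factor. Proliferation genes had medians of -0.29 and -0.28, with 3 of 11 intervals below 0 in each tumor, against 5.45% and 5.5% of all genes. Targets of NRF2, the oxidant sensor, had medians of 0.06 and 0.01. Of 7 and 8 counted, 0 were at least 2-fold higher, against 3.88% and 1.47% of all genes, too few genes for these zeros to be read. In tumor 1, 1 had its interval above 0 (Txnrd1, 0.77, 0.06 to 1.43), against 4.44%. In tumor 2, 1 was at least 2-fold lower (G6pdx, -1.24, -4.38 to 0.78), against 7.39%. Immediate early genes, which dissociation of tissue can induce, had intervals above 0 for 6 of 10 in tumor 1 (median 0.20) and 0 of 8 in tumor 2 (median -0.24), against the same 4.44% and 3.36%. With 8 genes counted, nothing is read from the 0 of tumor 2. In tumor 2, Jun had its interval below 0 (-0.37, -0.62 to -0.12). Glucocorticoid targets had medians of 0.48 and 0.34. In tumor 1, 3 of 7 glucocorticoid targets had an interval above 0, against 4.44% of all genes, with Tsc22d3 (1.09) past 2-fold. There 1 had its interval below 0 (Dusp1, -0.29, -0.51 to -0.07), against 5.45%. In tumor 2 it was 0 of 7 in either direction, against 3.36% and 5.5%, too few genes for these zeros to be read. Markers of macrophages had too few UMIs to be counted in Mt-high and Mt-low cells of either tumor.

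In tumor 2 a handful of cells had very many metallothionein molecules, and some of them, but not all, also had stress gene UMIs. The 22 neuroendocrine-like cells highest in Mt1 plus Mt2 had 12 to 128 UMIs of the pair per 1000 and held 25.8% of all such UMIs, whereas in tumor 1 they had 27 to 49 and held 8.13%. Of the 22 in tumor 2, 12 were in cluster 0. They were shallower than the other cells before thinning (median 1581 and 2112 UMIs), with fewer genes (median 824.5 and 1086). Gene numbers were not compared at equal depth. The 22 cells also had less mitochondrial RNA (0.463% and 0.940% of UMIs), and 0 of them were among the highest doublet scores. The richest had 88 Mt1 and 67 Mt2 UMIs of 1153, or 13.4% of its transcripts, together with 13 UMIs of Hspa1a, 17 of Hspb1, 17 of Hsp90aa1, 11 of Atf4 and 44 of Mycn, and 0 of Hmox1. That cell alone held 25.0% of the Hspb1 UMIs and 18.8% of the Hspa1a UMIs of all 3382 neuroendocrine-like cells of the tumor. Another, with 51 Mt1 and 112 Mt2 UMIs of 3568, had 7 of Atf4 and 1 of Hspa1a, and a further one, with 42 and 64 of 3101, had 35 of Hsp90aa1 and 320 of Mycn. In contrast, the cells with 32 Mt1 and 20 Mt2 UMIs of 1029 and with 44 and 8 of 1276 had 0 UMIs of Hspa1a, Hspb1, Hsp90aa1, Atf4 and Hmox1. Of the 22 cells, 4 had a UMI of Hspa1a, 2 of Hspb1 and 16 of Hsp90aa1. Among all 3382 neuroendocrine-like cells of the tumor these numbers were 23, 32 and 2262, so a UMI of Hsp90aa1 was common in any case.

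Genes higher in those 22 cells, named after their values were seen, included Ccnl1 (log2 2.95, in 7 of the 22), Gadd45g (2.29, in 14), Atf4 (2.21, in 8), Mycn (2.04, in 20) and Hspa5 (1.96, in 11). Atf4 had a UMI in 1019 of all 3382 neuroendocrine-like cells of the tumor. Such numbers are not given for the other genes, so the cell counts by themselves are not read. The Mycn ratio leans on the 1 cell with 320 of the 454 UMIs. The correlations of tumor 2 changed without these cells. The r with Mt1 plus Mt2 was 0.32 for Atf4, 0.21 for Hsp90aa1 and 0.21 for Mycn over all cells, but 0.0084, 0.039 and 0.069 without them. Over all cells the largest Mt-high to Mt-low ratios of well-measured genes in tumor 2 were under 2-fold, among them Igfbp2 (log2 0.89, 0.73 to 1.05), Eif4ebp1 (0.88, 0.63 to 1.14) and Nars (0.88, 0.52 to 1.23), and r for Igfbp2 was 0.15 without the 22 cells. The 22 cells of tumor 1 had other leading genes, with Gstm1 (log2 2.52), Nupr1 (1.77), Ankrd37 (1.59) and Fam162a (1.57) higher, and 15 of them were in cluster 0.

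Genes of metal handling were looked at in the same way. Other zinc exporters (SLC30 family) had 0 of 5 measured genes at least 2-fold different between the tumors, and zinc importers (SLC39 family) had 2 of 11 higher in tumor 1 and 1 higher in tumor 2, against 31.2% and 12.3% of all genes. The 2 were Slc39a4, with 83 and 3 UMIs (log2 5.67, 4.07 to 7.97), and Slc39a3 (1.60, 1.08 to 2.13), and the 1 was Slc39a8, with 2 and 16 UMIs. Copper genes had 4 of 8 at least 2-fold higher in tumor 1, against the same 31.2% of all genes. They were the copper ATPase Atp7a (log2 1.91), the dismutase Sod1 (1.53), the copper chaperone Cox17 (1.34) and Slc31a2 (1.10). The other way, Commd1 (-0.89, -1.01 to -0.76) and Slc31a1 (-0.50, -0.78 to -0.23) had intervals below 0, short of 2-fold. With 8 genes and so high a share over all genes, nothing is read from this count. Among cells of one tumor, the zinc transporters counted had 0 genes at least 2-fold higher in Mt-high cells and 0 with an interval above 0 in both tumors, as did copper genes. With 2 to 7 genes counted per list, the shares over all genes (3.88% and 4.44% in tumor 1, 1.47% and 3.36% in tumor 2) would give under 1 gene, so nothing is read from these zeros. In tumor 1, 2 of 7 copper genes were at least 2-fold lower, Ccs (log2 -1.41, -3.33 to 0.02) and Slc31a2 (-1.36, -3.69 to 0.29), against 10.4% of all genes, and Sod1 had its interval below 0 (-0.79, -1.60 to -0.06). Of 5 iron genes in tumor 1, 1 was at least 2-fold higher (Tfrc, the transferrin receptor, log2 1.18, 0.21 to 2.07), against 3.88% of all genes. Another was at least 2-fold lower (Slc40a1, the iron exporter, -1.57, -3.89 to 0.06), against 10.4%. With the ferritin genes Ftl1 (0.35) and Fth1 (0.20), 3 of the 5 had intervals above 0, against 4.44%. In tumor 2, 0 of 6 iron genes had an interval above or below 0, against 3.36% and 5.5% of all genes, too few genes for these zeros to be read.

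Genes next to the metallothioneins on chromosome 8 were compared between the tumors as well. Of the 6 neighbours with at least 10 UMIs, 1 was at least 2-fold higher in tumor 1 (Ogfod1, log2 1.17) and 1 in tumor 2 (Nudt21, -1.68), against 31.2% and 12.3% of all genes, and their median log2 ratio was 0.29 against 0.37 over all genes, so the neighbours as a group were near the background. Bbs2, a gene of the primary cilium, was at 11.1 and 8.76 CPM. Mt4, the metallothionein of squamous epithelium, was not seen in any neuroendocrine-like cell of either tumor (0 UMIs), which allows up to 0.710 CPM in tumor 1 and 0.386 CPM in tumor 2. None of the 4 neighbours counted in Mt-high and Mt-low cells was 2-fold higher or lower in either tumor. Over all genes the shares higher and lower were 3.88% and 10.4% in tumor 1 and 1.47% and 7.39% in tumor 2. With so few neighbours counted, nothing is read from their zeros.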

How the data were processed

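Single-cell RNA-seq libraries of 1 tumor from each of 2 mice were used. The matrices that the authors deposited hold UMI counts, as whole numbers without normalization. The submitters' processing notes name Cell Ranger, Seurat and mm10, with no versions or roles. Barcodes with more than 500 detected genes and under 10% mitochondrial UMIs were retained, where the second filter removed 0 further barcodes. Clusters were made separately per tumor in R 4.3.3 using Seurat 5.3.0 (1000 variable genes without the metallothionein genes and Slc30a1, 10 principal components, resolution 0.8). Clusters were named from marker lists (at least 3 markers, 4-fold higher, or 2-fold over immune-like cells for neuroendocrine markers). Besides neuroendocrine, only macrophage and club served as names, and a club cluster that also passed for neuroendocrine stayed unnamed. Cluster 0 of tumor 1 also passed for ciliated markers (Cfap126, Dynlrb2, Pifo) but was kept as neuroendocrine-like. Scrublet (scanpy 1.11.5) called 0 doublets in each tumor, so its calls removed no cells and doublets may remain. Its scores were used only as a ranking, with removal of the highest 5% as an alternative.

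UMIs were summed over cells as CPM with exact Poisson intervals. Ratios have exact conditional binomial intervals and shares exact Clopper-Pearson intervals. Cells were thinned to 1000 UMIs (seed 1) for shares, correlations and the comparison of Mt-high with Mt-low cells, in which genes needed at least 20 UMIs. Each tumor has 1 library, so no test was run and edgeR 4.0.16 served only for TMM factors. Python 3.11.15, numpy 2.4.6, scipy 1.17.1, pandas 2.3.3 and matplotlib 3.10.9 were used, and the computations were tested on simulated data. Alternatives were other filters, depths, scalings and thresholds, and those that leave out clusters or the richest cells were added after seeing the data. Counts by list with clusters or cells left out have no share over all genes of the same cells beside them. Promoter sequences came from RefSeq, with all 4 genes matched, and gene positions from GENCODE M21. Named genes were the 4 genes, the lists and markers, the genes that lead the clusters, and per tumor the 15 genes with the highest correlation or ratio and the 5 with the lowest, with a mean of at least 0.05 UMIs. The genes, lists and rules were chosen with earlier results of these data known, and none of the lists is independent evidence.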

Additional observations from a re-analysis of the deposited data

How the results depend on the processing

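No paired analysis was possible because each tumor is 1 library and the shared replicate number 1 marks nothing common to both. The ratios of Mt1 and Mt2 between the tumors and the correlations of Mt1 with Mt2 kept their sign under the alternatives run. Correlations near 0 did not all do so without the 22 highest cells, where r of Mt1 with Slc30a1 in tumor 1 went from 0.053 to -0.0041 and r of Mt1 with Mt3 in tumor 2 from -0.0033 to 0.0064. The log2 ratio of Mt1 between the tumors, 2.45, was 2.31 with more than 1000 detected genes, 2.29 over all retained cells, 2.35 without proliferating cells, 2.22 with mitochondrial and ribosomal protein genes left out of the total, 2.07 with TMM factors and 2.21 over all barcodes with more than 200 genes. That of Mt2, 2.18, was 1.99 over all retained cells, 1.78 without proliferating cells, 1.95, 1.80 and 1.90 under the last 3 of these. Without clusters 0, 5 and 6 of tumor 1 (added after seeing the data) the ratio of Mt1 was 2.26.

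The correlation of Mt1 with Mt2 in tumor 1, 0.59, was 0.46 with more than 1000 genes, 0.53 without clusters 0, 5 and 6, 0.54 at 2000 UMIs, 0.46 as Spearman's rho, 0.48 on log values and 0.46 without the 22 highest cells (added). In tumor 2, 0.77, it was 0.58 with more than 1000 genes, 0.83 over all retained cells, 0.79 without the highest Scrublet scores, 0.88 without proliferating cells, 0.67 at 2000 UMIs, 0.81 with seed 2, 0.31 as rho, 0.47 on log values and 0.34 without the 22 highest cells.

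Genes at least 2-fold higher in Mt-high cells numbered 305 in tumor 1 and 119 in tumor 2. In tumor 1 there were 165 with more than 1000 genes per cell, 187 without clusters 0, 5 and 6, 76 and 593 with at least 50 or 10 UMIs a gene, and 196 with the 75th percentile. In tumor 2 there were 284 over all retained cells, 25 and 317 with at least 50 or 10 UMIs, and 182 when cells were ranked by Mt1 alone. Slc30a1, with under 40 UMIs a tumor, is limited by depth.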
